A study of Mus musculus with 10 samples.

Results

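The aryl hydrocarbon receptor pathway was followed through 6 genes: Ahr (the receptor), Arnt (its partner), Ahrr (the repressor), and the target genes Cyp1a1, Cyp1b1 and Tiparp. They are 6 of the 52550 genes in the deposited table, taken by name, and 5 of them (all but Cyp1a1) had enough reads to be among the 16602 genes tested. The set was chosen on values of these same data, since lower levels of Ahr and Ahrr in female than in male cells were already known, so the contrast between the sexes is given for these genes as a description and supports nothing further. The data are 10 RNA-seq libraries of MEFs (mouse embryonic fibroblasts), primary cultures grown out of dissociated embryos. There were 5 libraries of female and 5 of male cells, all from C57BL/6 embryos at embryonic day 14 and all at passage 3. The labels name no receptor ligand among the culture conditions, and the cells grew in medium with fetal bovine serum. RNA was total RNA depleted of ribosomal RNA, and the libraries were directional.

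The receptor is a basic helix-loop-helix protein of the PAS family that waits in the cytosol with HSP90 and co-chaperones until a ligand, such as a dioxin, a polycyclic hydrocarbon or a tryptophan metabolite, binds it. It then moves to the nucleus, pairs with ARNT, and binds short DNA elements beside its target genes, among them those of the CYP1 enzymes, which oxidise many of these ligands. AHRR and TIPARP are themselves induced by the receptor and restrain it, AHRR by competing for ARNT and DNA and TIPARP by ADP-ribosylation of the receptor. In fibroblasts CYP1B1 is known as the constitutively expressed CYP1 enzyme.

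The DNA element read by the pair holds the core GCGTG, and its place in the promoters of the repressor and the targets is shown because the levels described below are those of these genes. Promoters were RefSeq sequences of GRCm38.p6, from 250 bases before to 50 bases after the RefSeq start, and 5 of the 6 genes had one (not Ahr). They lie at chr13:74292282-74292581 on the minus strand for Ahrr, chr17:79715012-79715311 on the minus strand for Cyp1b1, chr3:65528197-65528496 on the plus strand for Tiparp and chr9:57697363-57697662 on the plus strand for Cyp1a1. Each is written 5′ to 3′ on the strand of its gene, with matches to the core on either strand in capitals. On the opposite strand the core reads CACGC. Where a core lies inside the longer form TNGCGTG, the whole longer form is in capitals. The longer form was also searched on the opposite strand, where it reads CACGCNA.
Ahrr: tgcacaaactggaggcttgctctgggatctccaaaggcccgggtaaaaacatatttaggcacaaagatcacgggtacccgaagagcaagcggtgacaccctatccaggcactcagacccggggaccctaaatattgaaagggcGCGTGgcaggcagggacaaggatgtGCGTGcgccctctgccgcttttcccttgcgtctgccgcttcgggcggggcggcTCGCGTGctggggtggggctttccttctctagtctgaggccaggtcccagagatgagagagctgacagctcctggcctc
Cyp1b1: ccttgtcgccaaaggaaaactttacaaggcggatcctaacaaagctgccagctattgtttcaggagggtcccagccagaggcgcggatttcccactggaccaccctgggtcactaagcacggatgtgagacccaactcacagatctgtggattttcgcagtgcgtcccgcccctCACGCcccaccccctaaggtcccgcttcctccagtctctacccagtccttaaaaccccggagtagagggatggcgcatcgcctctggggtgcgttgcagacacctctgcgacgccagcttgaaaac
Tiparp: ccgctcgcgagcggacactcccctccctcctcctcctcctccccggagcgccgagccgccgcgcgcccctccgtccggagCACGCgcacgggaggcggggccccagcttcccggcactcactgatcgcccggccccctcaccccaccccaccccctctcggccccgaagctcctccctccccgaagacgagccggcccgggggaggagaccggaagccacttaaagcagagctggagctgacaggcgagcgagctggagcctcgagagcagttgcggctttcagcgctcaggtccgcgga
Cyp1a1: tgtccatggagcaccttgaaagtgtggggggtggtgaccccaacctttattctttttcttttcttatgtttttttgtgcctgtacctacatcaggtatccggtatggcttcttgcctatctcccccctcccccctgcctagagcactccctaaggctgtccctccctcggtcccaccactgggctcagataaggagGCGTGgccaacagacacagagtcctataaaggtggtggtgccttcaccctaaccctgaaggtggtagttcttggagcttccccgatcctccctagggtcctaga
Ahrr held 3 cores, which begin 107, 82 and 27 bases before the start, and the last of them lies in the longer form. Arnt, Cyp1a1, Cyp1b1 and Tiparp held 1 core each, beginning 29, 54, 76 and 170 bases before the start. The starts used for Cyp1a1, Tiparp and Arnt lie inside the deposited spans of these genes. The spans begin further upstream, at chr9:57687928, chr3:65528410 and chr3:95434388, by few bases for Arnt and by most for Cyp1a1. Of 32851 promoters of this length, 32.4% held at least 1 core, 3.91% held at least 3 and 5.07% held the longer form. A match is a run of letters and was not tested for binding. Sequence outside these windows was not searched, so the counts do not cover all elements near a gene.

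Unique gene reads, which are the reads placed at a single site in the exons or introns of a gene, came to between 35861359 and 45859721 per female library and between 30662616 and 40664001 per male library. The sex labels matched the sex-linked genes, with Xist at 17.3 to 25.7 CPM (unique gene reads per 1000000, after TMM scaling) in female libraries and 0 to 0.0579 CPM in male libraries. All 10 fibroblast markers (Col1a1, Vim, Pdgfra and others) were tested, and their summed level was 22468 to 29799.9 CPM in female and 23077 to 28873 CPM in male libraries. Markers of other cells were far lower in sum, with hepatocyte markers at 3.43 to 12.6 CPM in female and 2.80 to 7.43 CPM in male libraries. Macrophage markers summed to 37.1 to 94.6 CPM in female and 44.7 to 69.1 CPM in male libraries. No marker of the 7 lists was at 0 in every library. Of 37 markers tested between the sexes, 0 passed edgeR's test and 9 had an unadjusted p under 0.05, against 5.55% of all tested genes. Of the same markers 0 passed limma-voom and 3 passed DESeq2 (the mesothelial marker Msln and the cartilage markers Col10a1 and Hapln1), against 0.0783% and 0.434% of all tested genes. In bulk RNA, fewer cells of a type and less RNA per cell cannot be told apart.

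Per length of exon, the target Cyp1b1 was the highest of the 6 genes and the target Cyp1a1 the lowest. Levels between genes were compared as unique exon reads per kilobase of exon and per 1000000 unique exon reads, called the level per length here. Over the 10 libraries, the level per length was 29.1 ± 5.17 for Cyp1b1, 10.9 ± 1.44 for Tiparp, 10.0 ± 0.403 for Arnt, 2.26 ± 0.474 for Ahr, 0.746 ± 0.318 for Ahrr and 0.0283 ± 0.0328 for Cyp1a1 (SD, n = 10). Among the means of all tested genes, these levels stood at the percentiles 90.5, 75.1, 73.5, 46.3, 33.8 and 10.7 in the same order. Cyp1a1, the last of them, was not itself tested. Genes were admitted to the test on exon and intron reads together, while the level per length counts exon reads only. Tested genes can thus lie below Cyp1a1 on this measure. The ranges of Tiparp and Arnt overlapped, and Tiparp was the higher of them in 8 of 10 libraries. Every other pair of neighbours in that order was separated in all 10 libraries with no overlap of ranges. RNA of the partner exceeded that of the receptor, with a ratio of Arnt to Ahr per length of 5.39 ± 0.682 in female and 3.86 ± 0.454 in male libraries (SD, n = 5 each). The receptor in turn exceeded its repressor, with a ratio of Ahr to Ahrr of 3.49 ± 0.830 in female and 3.11 ± 1.15 in male libraries.

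**Figure D1:**
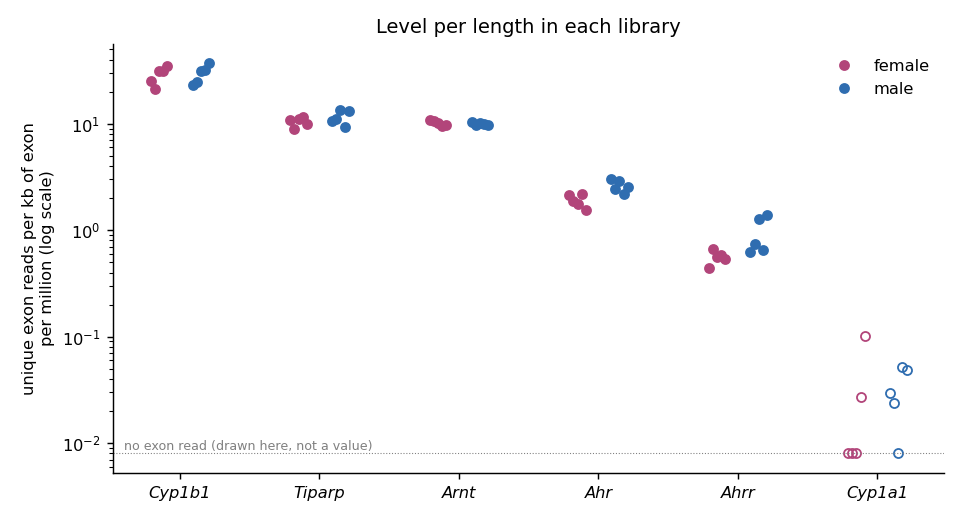
Level per length of the 6 genes on a log axis, as unique exon reads per kilobase of exon and per 1000000 unique exon reads. Each point is 1 library (5 female, left; 5 male, right), open points mark Cyp1a1, and its libraries with no exon read are drawn on the dotted line. The genes fall from Cyp1b1, with a mean of 29.1, to Cyp1a1, with a mean of 0.0283, and Tiparp and Arnt overlap.

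Ahr, the ligand-binding receptor (ENSMUSG00000019256, chr12:35497974-35535038 on the minus strand, mm10), had 437, 437, 481, 477 and 399 unique gene reads in female replicates 1 to 5, against 592, 558, 527, 449 and 642 in male replicates 1 to 5. In CPM this was 11.8, 11.2, 10.1, 13.4 and 10.5 in female libraries, against 16.8, 13.998, 16.9, 13.0 and 15.8 in male libraries. The sexes met at a single point, since female replicate 4, the highest of its sex, lay just above male replicate 4, the lowest of its sex. Ahr averaged 11.4 ± 1.30 CPM in female and 15.3 ± 1.74 CPM in male cells (SD, n = 5 each), a log2 fold change (female minus male) of -0.42 ± 0.10 (SE) in edgeR's quasi-likelihood fit with an adjusted p of 0.324. DESeq2 gave an adjusted p of 0.0252 for the same gene, and the adjusted p ranged from 0.0252 to 0.994 over 18 alternative settings, while the log2 fold change stayed between -0.49 and -0.38. Per length the level of Ahr was 1.90 ± 0.256 in female and 2.62 ± 0.349 in male cells. A long non-coding gene on the opposite strand, Gm48236, overlaps Ahr, and whether the counting used strand is not given in the sources used here.

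Arnt, the partner that Ahr needs to bind DNA and that HIF1A also uses (ENSMUSG00000015522, chr3:95434388-95497240 on the plus strand), was the steadiest of the 6 genes. It was at 83.4, 85.5, 77.9, 79.1 and 75.7 CPM in female libraries, against 83.2, 77.1, 79.0, 77.3 and 75.7 CPM in male libraries. The sexes overlapped over nearly the whole range, and the coefficient of variation was 5.00% in female and 3.66% in male libraries. Arnt averaged 80.3 ± 4.02 CPM in female and 78.5 ± 2.87 CPM in male cells, a log2 fold change of 0.03 ± 0.05 (edgeR adjusted p = 0.999). A pseudogene on the same strand, Gm42672, lies within Arnt, and 99.6% of the total gene reads of Arnt were unique.

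Ahrr, the repressor that pairs with ARNT without activating (ENSMUSG00000021575, chr13:74211118-74292331 on the minus strand), had 144, 250, 288, 234 and 228 unique gene reads in female replicates 1 to 5, against 239, 301, 402, 247 and 620 in male replicates 1 to 5. In CPM it was at 3.90, 6.42, 6.06, 6.57 and 5.98 in female libraries, against 6.80, 7.55, 12.9, 7.15 and 15.2 in male libraries. In CPM no male library was as low as any female one, and male replicates 3 and 5 stood well above the other males, while female replicate 1 stood below the other females. Ahrr averaged 5.79 ± 1.08 CPM in female and 9.92 ± 3.86 CPM in male cells, a log2 fold change of -0.78 ± 0.24 (edgeR adjusted p = 0.647). Per length, from exon reads alone, the sexes overlapped, at 0.442, 0.663, 0.556, 0.587 and 0.540 in female libraries, against 0.625, 0.747, 1.26, 0.648 and 1.39 in male libraries. The coefficient of variation of its CPM was 18.7% in female and 39.0% in male libraries. Without male replicate 5 the log2 fold change was -0.57 ± 0.20, without male replicate 3 it was -0.67 ± 0.25 and without female replicate 1 it was -0.67 ± 0.24. The adjusted p of Ahrr ranged from 0.0904 to 1.00 over 18 alternative settings. Reads across exon junctions, which can come from spliced RNA only, numbered 12, 24, 28, 10 and 19 in female libraries, against 19, 20, 39, 17 and 58 in male libraries. By these reads too male replicates 3 and 5 were the highest, and the sexes overlapped.

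Cyp1b1, the CYP1 enzyme that oxidises oestradiol and polycyclic hydrocarbons (ENSMUSG00000024087, chr17:79706953-79715041 on the minus strand), was at 97.9, 87.4, 115.5, 124.2 and 135.1 CPM in female libraries, against 85.0, 99.7, 120.6, 132.5 and 142.1 CPM in male libraries. The sexes covered the same range, and within each sex the highest library was more than 1.5 times the lowest, with a ratio of 1.55 in female and 1.67 in male libraries. It averaged 112.0 ± 19.3 CPM in female and 116.0 ± 23.5 CPM in male cells, a log2 fold change of -0.05 ± 0.16 (edgeR adjusted p = 0.999). The direction of this small value turned when any of 3 single libraries was left out, over a range of -0.14 to 0.034. The deposited span of Cyp1b1 is shorter than that in the GENCODE annotation (chr17:79701537-79715061). Its level per length and its share of intron reads rest on the deposited gene model.

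Tiparp, which encodes an ADP-ribosyltransferase (ENSMUSG00000034640, chr3:65528410-65555518 on the plus strand), was at 42.3, 36.8, 41.3, 44.4 and 38.7 CPM in female libraries, against 41.1, 43.7, 53.7, 38.4 and 51.3 CPM in male libraries. Male replicates 3 and 5, the highest for Ahrr, were also the highest for Tiparp, and the other 3 males lay within the female range. Tiparp averaged 40.7 ± 3.00 CPM in female and 45.6 ± 6.58 CPM in male cells, a log2 fold change of -0.16 ± 0.09 (edgeR adjusted p = 0.965). A pseudogene on the opposite strand, 4931440P22Rik, overlaps Tiparp.

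Cyp1a1, the most inducible enzyme of the pathway (ENSMUSG00000032315, chr9:57687928-57703824 on the plus strand), was close to absent. It had 1, 0, 0, 2 and 9 unique gene reads in female libraries, against 3, 3, 1, 4 and 4 in male libraries. The sums were 12 reads in female and 15 in male libraries, which come to 0.0609 CPM (95% exact Poisson interval 0.0315 to 0.106) in female and 0.0826 CPM (0.0462 to 0.136) in male cells. Female replicate 5 held 9 of the 12 female reads, and without it the other 4 female libraries had 3 reads, or 0.0189 CPM (0.00389 to 0.0552). These intervals overlap that of male cells. All of them rest on reads pooled over libraries and cover counting error only, not the spread between libraries. Reads amplified by PCR and carrying no molecular identifier may also copy the same molecule. Reads across exon junctions of Cyp1a1 numbered 2 in all, both in male replicate 1. Its neighbour and paralog Cyp1a2, a liver enzyme of the same family, had 6 reads in female and 10 in male libraries. Per length, the mean of Cyp1b1 was 1029 times that of Cyp1a1.

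**Figure D2:**
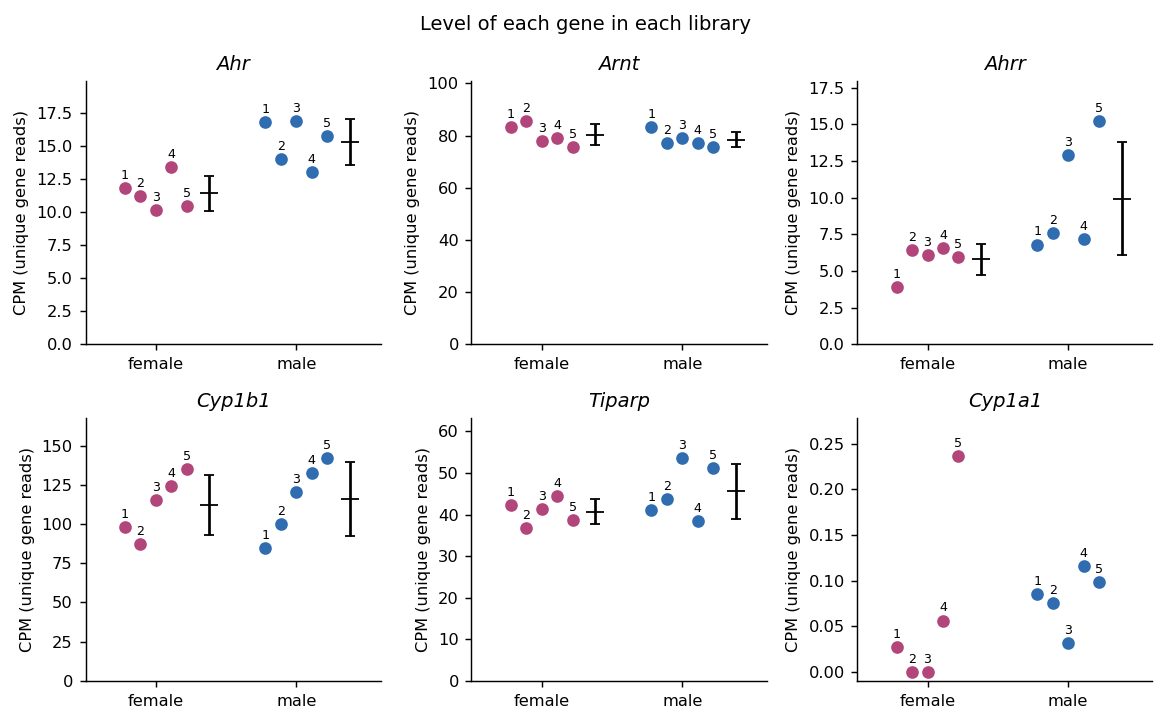
Level of each of the 6 genes in CPM of unique gene reads (vertical axis) in the 5 female (left) and 5 male (right) libraries, numbered by replicate. Bars give the mean and SD, except for Cyp1a1, which had 0 to 9 reads a library. Ahrr is higher in all 5 male than in all 5 female libraries, Ahr overlaps at female and male replicate 4, and Arnt, Cyp1b1 and Tiparp overlap widely.

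Between the sexes, none of the 5 tested genes passed edgeR's test at an adjusted p of 0.05, a rule that 0.0904% of all tested genes passed (15 of 16602). At an unadjusted p of 0.05, 2 of the 5 passed (Ahr and Ahrr), against 5.55% of all tested genes. DESeq2 called 1 of the 5 (Ahr), against 0.434% of all tested genes, and limma-voom called 0, against 0.0783%. The CPM of the sexes did not overlap for 1 of the 5 (Ahrr), which held for 0.976% of all tested genes. Since the known values of Ahr and Ahrr entered the choice of the genes, nothing is read from these shares. The median log2 fold change of the 5 genes was -0.16, with 4 of 5 negative, beside a median of 0.00 and 47.9% negative over all tested genes. In the authors' deposited table, whose fold is positive where females are higher, Ahr had a signed fold of -1.32 with a false discovery rate of 0.192. Ahrr had a signed fold of -1.71 with a false discovery rate of 0.238 in the authors' deposited table.

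Reads in introns, which come from unspliced RNA among other sources, overlapped between the sexes as a share of each gene's reads. They were 24.2% ± 5.76 of the unique gene reads of Ahr in female and 22.2% ± 3.41 in male libraries (SD, n = 5 each), and 31.9% ± 8.68 of those of Ahrr in female and 34.3% ± 3.94 in male libraries. Arnt had 25.6% ± 2.37 in female and 24.8% ± 4.21 in male libraries, and Tiparp had 17.9% ± 1.79 in female and 19.2% ± 2.70 in male libraries. These shares lay within the quartiles of all tested genes, around the median of 23.1% (quartiles 9.15% and 56.3%). Counted on its deposited span, Cyp1b1, a compact gene of 3 exons, stood apart at 3.22% ± 0.496 in female and 3.37% ± 0.775 in male libraries. The log2 ratio of intron to exon reads differed between the sexes by 0.14 for Ahr, -0.18 for Ahrr, 0.07 for Arnt, -0.05 for Cyp1b1 and -0.12 for Tiparp (female minus male). In a two-sided exact permutation test of 5 against 5 libraries, which cannot go below a p of 0.00794, none of the 5 differences passed, with unadjusted p between 0.413 and 0.810 and an adjusted p of 0.810 for each. Differences smaller than the spread between libraries, which was 0.18 to 0.59 in female and 0.25 to 0.34 in male libraries (SD of the log2 ratio), were not detectable with 5 libraries a sex.

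**Figure D3:**
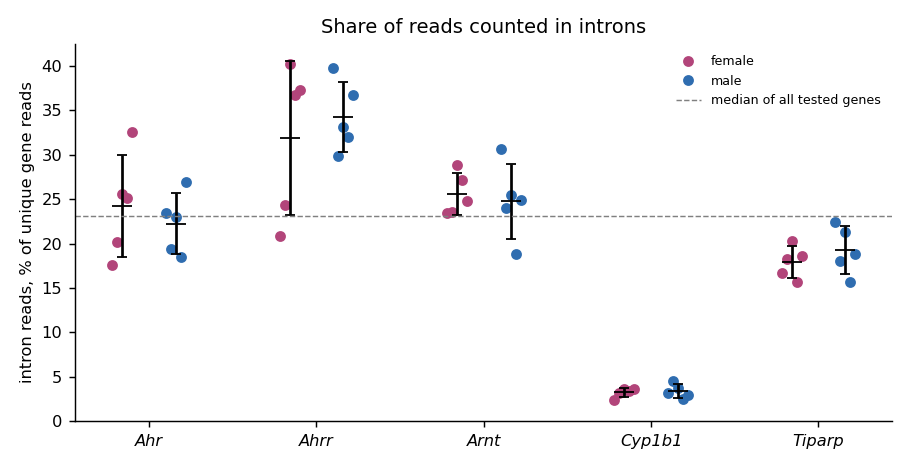
Reads in introns as a percent of unique gene reads for the 5 tested genes, with 1 point for each of the 5 female (left) and 5 male (right) libraries and bars for the mean and SD. The dashed line is the median of all tested genes, 23.1%. The sexes overlap for every gene, and Cyp1b1 lies near 3.3%, far under the other 4.

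Between libraries of the same sex, the r of pairs of pathway genes ran from -0.86 to 0.66. Log2 CPM was compared over the 10 libraries for the 10 pairs of tested genes after the mean of each sex had been removed. The test was a two-sided exact permutation of libraries within each sex, which takes same-numbered female and male libraries as unrelated. For Cyp1b1 these libraries ran alike. Its log2 CPM minus the mean of its sex was -0.18, -0.34, 0.062, 0.17 and 0.29 in female replicates 1 to 5. In male replicates 1 to 5 it was -0.42, -0.19, 0.081, 0.22 and 0.32. Exact p-values of pairs with Cyp1b1 could therefore be too small. A single pair passed, Arnt with Cyp1b1, with Pearson's r = -0.86 (exact p = 0.00271, adjusted over the 10 pairs p = 0.0271). Genes outside the pathway reached larger values with Cyp1b1, since 135 of 12313 had an r above 0.9 with it. The share of all genes as far from 0 as Arnt was not counted, so this r is not particular to the pathway. Spearman's rank correlation was -0.73 (exact p = 0.0235, adjusted p = 0.235), which did not pass. Libraries above their sex's mean in one gene were below it in the other in 8 of 10 cases, and r was -0.97 within the female and -0.80 within the male libraries. Without female replicate 2 and male replicate 1, the libraries farthest from the median of Arnt, r was -0.68 (exact p = 0.0747) over fewer libraries and a narrower range of Arnt. Leaving out 1 library at a time ended the call in 8 of 10 cases, with r between -0.95 and -0.80 over the 10 cases. Counting exon reads only, r was -0.80 with an adjusted p of 0.134. The Arnt side of this relation is small, since Arnt varied by no more than 1.13-fold between libraries of a sex.

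The receptor showed no detectable relation to its targets' levels across untreated libraries. The r of Ahr was 0.59 with Tiparp (adjusted p = 0.386 in the exact permutation test), -0.19 with Cyp1b1 (adjusted p = 0.617) and 0.26 with Ahrr (adjusted p = 0.541). With 10 libraries these values do not show that the genes vary apart. The r of Ahr with Tiparp was 0.21 without male replicate 4 and female replicate 4, the libraries farthest from the median of Ahr. Leaving out 1 library at a time, it lay between 0.40 and 0.80, with an adjusted p of 0.104 or more in the exact permutation test. Ahrr and Tiparp had an r of 0.66 (adjusted p = 0.386 in the exact permutation test), with -0.24 within the female and 0.92 within the male libraries, a difference that was not tested. Without female replicate 1 and male replicate 5, the libraries farthest from the median of Ahrr, this r was 0.84 (exact p = 0.0521). Leaving out 1 library at a time, it lay between 0.55 and 0.84, with an adjusted p of 0.186 or more in the exact permutation test. Ahrr and Cyp1b1 had an r of 0.53 (adjusted p = 0.386 in the exact permutation test), and the other 4 pairs lay between -0.37 and 0.40. Spearman's rank correlation of the 9 pairs that did not pass lay between -0.32 and 0.59, with adjusted p of 0.473 or more.

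More genes varied closely with Cyp1b1 than with Ahr, Ahrr or Tiparp. Of 12313 tested genes with a mean of at least 1 CPM, 135 had an r above 0.9 with Cyp1b1 over the 10 libraries, against 2 with Ahr, 14 with Ahrr and 15 with Tiparp. Such counts were not made for Arnt or for genes outside the pathway, so how 135 compares with a typical gene is not known. These correlations are descriptions, since libraries share their depth and scaling and the genes were ranked on the same values. The closest to Cyp1b1 were Palld (palladin, an actin-bundling protein) at 0.99, Ctgf (a matricellular growth factor also called Ccn2) at 0.99, Stoml2 at 0.98, Pitx1 (a hindlimb homeobox factor) at 0.98 and Pxylp1 at 0.98. Ctgf was at 919, 875, 991, 1068 and 1143 CPM in female libraries, against 847, 971, 1034, 1106 and 1190 CPM in male libraries. The order of the libraries was the same for Ctgf as for Cyp1b1 within each sex. The most opposed genes were Asph at -0.98, Akap13 (an anchoring protein of protein kinase A) at -0.98 and Gramd3 at -0.97.

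**Figure D4:**
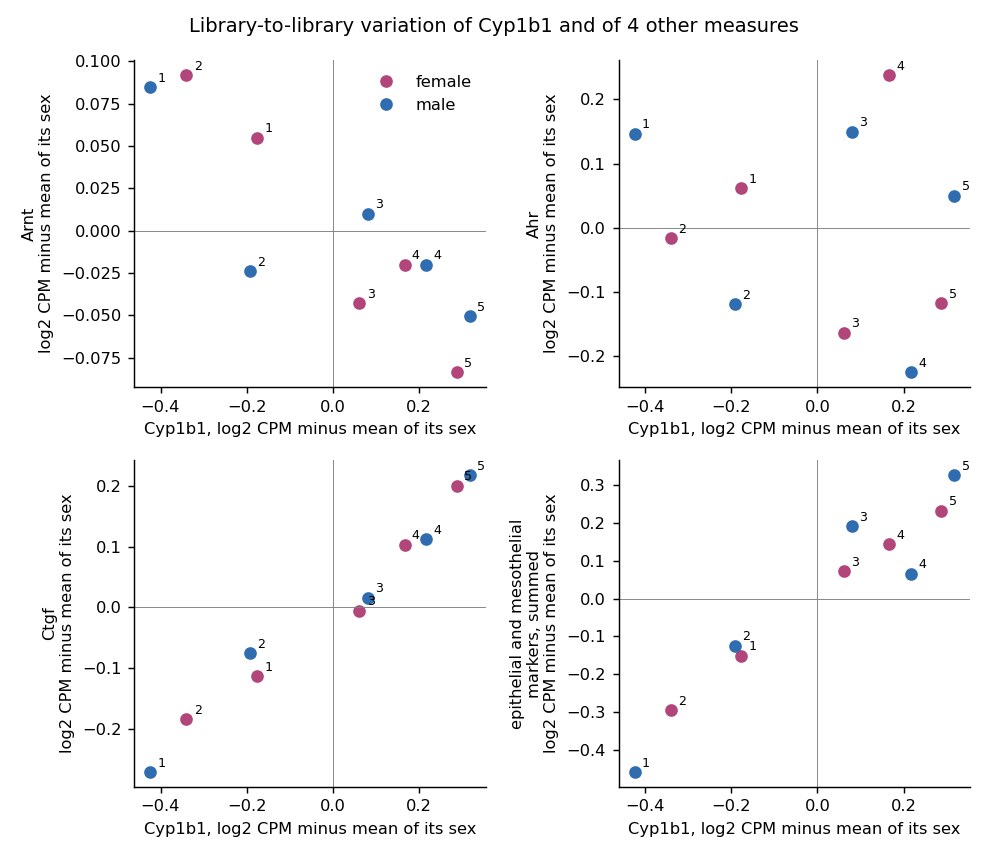
Log2 CPM of Cyp1b1 (horizontal axes) against that of Arnt, Ahr, Ctgf and the summed epithelial and mesothelial markers (vertical axes), each as the difference from the mean of its sex, in 5 female and 5 male libraries numbered by replicate. Arnt falls as Cyp1b1 rises (r = -0.86), Ahr shows no clear relation (r = -0.19), and Ctgf (r = 0.99) and the marker sum (r = 0.96) rise with it.

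Marker sums of other cells varied between libraries, some with Cyp1b1 and some against it. The summed level of 7 epithelial and mesothelial markers, 68.7 to 99.1 CPM in female and 73.5 to 126.8 CPM in male libraries, had an r of 0.96 with Cyp1b1, -0.85 with Arnt and 0.67 with Ahrr. Within that list Krt19, a keratin of simple epithelia, had an r of 0.94 with Cyp1b1, and it made up most of the sum, with a mean of 62.7 CPM in female and 78.4 CPM in male libraries. The other tested markers of the list had lower values, at 0.60 for Krt8, 0.55 for Msln, 0.54 for Cdh1, 0.05 for Krt18 and -0.26 for Upk3b. Macrophage, skeletal muscle, cartilage and endothelial marker sums had an r of 0.72, 0.73, 0.65 and 0.43 with Cyp1b1, and of -0.74, -0.73, -0.47 and -0.40 with Arnt. These sums were not split into their markers. In the skeletal muscle list only 2 of 5 markers had enough reads to be tested, and Des and Actc1 were the most abundant. The hepatocyte marker sum ran the other way, with an r of -0.52 with Cyp1b1 and 0.68 with Arnt. The summed fibroblast markers had an r of -0.47 with Cyp1b1, 0.56 with Arnt and -0.69 with Tiparp. The r of Ahr with the number of unique gene reads in a library was -0.60. The part of these measures in the levels of the pathway genes was not tested.

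Ahrr was closest to Sgk3 (a serum- and glucocorticoid-regulated kinase) at an r of 0.97, Zfp54 at 0.95, Elovl7 (a fatty acid elongase) at 0.95, Lhx9 (a homeobox factor of limb and gonad) at 0.95 and Slc25a15 (a mitochondrial ornithine carrier) at 0.93. Male replicates 3 and 5 led this group too: Lhx9 was at 9.49, 12.8, 11.98, 13.1 and 13.0 CPM in female libraries, against 11.9, 14.6, 25.8, 13.2 and 23.0 CPM in male libraries. The genes most opposed to Ahrr were Ube2ql1 at -0.95, Ptpn13 (a tyrosine phosphatase) at -0.95 and Ift46 (a ciliary transport protein) at -0.94. Tiparp was closest to Hoxd11 (a homeobox factor of the distal limb) at 0.95, Suco at 0.94, Emc2 (a subunit of the membrane protein complex of the endoplasmic reticulum) at 0.94, Sypl at 0.93 and Ankrd29 at 0.93. Hoxd11 was at 3.33, 2.59, 4.08, 3.90 and 2.78 CPM in female libraries, against 4.21, 5.02, 7.91, 4.11 and 6.82 CPM in male libraries, again with male replicates 3 and 5 on top. Opposed to Tiparp were Palm at -0.94, Cplx2 at -0.93 and Hic1 at -0.93. Ahr was closest to Zhx1 at 0.96, Nufip2 at 0.91, Uba6 at 0.87, Nr2c1 at 0.87 and Klhl8 at 0.87, and most opposed to Mak16 at -0.94, Arhgap33 at -0.89 and Fbl (the nucleolar methyltransferase fibrillarin) at -0.88.

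Around the receptor, none of the tested genes of 6 lists (its complex, partners, corepressors, other targets, ligand metabolism and coupled enzymes) passed edgeR, DESeq2 or limma-voom between the sexes after adjustment. Of all tested genes 0.0904%, 0.434% and 0.0783% passed these tools in the same order, so 0 calls in lists of this size says little. All 5 genes of the cytosolic complex that holds the receptor were tested, all with a small positive log2 fold change (median 0.04). Over all tested genes 47.9% were negative. Of the 5 genes 0 passed edgeR's test, also at an unadjusted p of 0.05, which 5.55% of all tested genes passed. The chaperone gene Hsp90ab1 had a level per length of 687, the co-chaperone gene Ptges3 (p23) had 85.8 and Hsp90aa1 had 63.8. Of 16 genes of PAS-domain partners and coactivators, 9 had a positive and 7 a negative log2 fold change (median 0.04), and 1 passed at an unadjusted p of 0.05, as 5.55% of all tested genes did. That gene was Arnt2, the paralog of Arnt, at 16.5 ± 1.45 CPM in female and 18.6 ± 0.936 CPM in male cells (log2 fold change -0.17 ± 0.08, edgeR adjusted p = 0.864), with an antisense gene, Gm30873, over it. Per length Arnt exceeded Arnt2 by 5.84 ± 0.516 times in female and 5.25 ± 0.868 times in male cells. The most abundant of the PAS and coactivator genes per length were Hif1a, the hypoxia factor that also pairs with ARNT, at 30.4, the clock gene Arntl at 13.5 and the coactivator gene Ncoa3 at 8.03. The corepressor genes of AHRR, Hdac5, Hdac4 and Ankra2, had levels per length of 7.72, 7.69 and 2.72, with log2 fold changes of 0.06, 0.00 and -0.13.

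Of 14 other reported targets, 9 were tested, with 2 positive and 7 negative log2 fold changes (median -0.09), and 0 passed edgeR's test after adjustment. Over all tested genes 47.9% were negative. The list was chosen with earlier results of these data known, so nothing is read from the signs. At an unadjusted p of 0.05, 2 of the 9 passed, against 5.55% of all tested genes. Nqo1, a quinone reductase under both AHR and NFE2L2, was at 14.7 ± 1.05 CPM in female and 18.4 ± 4.03 CPM in male cells (log2 fold change -0.33 ± 0.14, edgeR adjusted p = 0.836). Ereg, the EGF receptor ligand epiregulin, was at 31.8 ± 6.35 CPM in female and 43.1 ± 9.90 CPM in male cells (log2 fold change -0.44 ± 0.17, edgeR adjusted p = 0.811), and an antisense gene, Gm19610, overlaps it. The most abundant targets per length were Nfe2l2, the oxidative stress factor, at 29.1, Hes1, a Notch target, at 28.7 and the amino acid transporter gene Slc7a5 at 15.7. The 5 targets that were not tested had almost no reads. Aldh3a1, an aldehyde dehydrogenase induced by dioxin in liver, had 4 reads in female and 6 in male libraries, and Ugt1a6a, Ugt1a6b and Gsta1, genes of conjugating enzymes, had 0 to 2 reads a sex.

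Of 12 genes that make or clear kynurenine and related tryptophan-derived ligands, 7 were tested, with 4 positive and 3 negative log2 fold changes (median 0.00), and 0 passed edgeR's test after adjustment. Ido1 and Tdo2, which open the kynurenine pathway, had 16 and 30 reads in female libraries, against 25 and 28 in male libraries, and were not tested. Il4i1, an amino acid oxidase, was the only one of the 7 under an unadjusted p of 0.05 (5.55% of all tested genes were), with a log2 fold change of 0.47 ± 0.22 (edgeR adjusted p = 0.894), but Nup62, Atf5 and Tbc1d17 overlap it. The most abundant per length were Kyat3 at 0.855, Kyat1 at 0.759 and Afmid at 0.356. All 5 enzymes that act with or after CYP1 were tested, with 1 positive and 4 negative log2 fold changes (median -0.04), beside 47.9% negative over all tested genes. Of these enzymes 0 passed, also at an unadjusted p of 0.05, which 5.55% of all tested genes passed. Ephx1, the microsomal epoxide hydrolase, Gstp1, a glutathione transferase, and Por, the reductase that feeds electrons to CYP enzymes, had levels per length of 77.5, 61.0 and 42.2.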

How the data were processed

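RNA-seq was available for 5 female and 5 male libraries, grouped by the sex in the labels and numbered as in the sample titles. Since the labels name no separate embryo or culture for each library, p-values reflect the spread between these samples, which could be technical. Read counts per library, whole numbers without normalization, stand in the table of 52550 genes that the authors deposited. Per the file headers, they cover unique and total reads in genes, exons and introns and across exon junctions. Positions are on mm10 (build from the submitters' processing notes). For aligner and counter, names were not given in the sources used here. Also copied were the authors' deposited false discovery rate p-value and signed fold for each gene. A further 80 per-library columns stayed out of use.

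Genes with few unique gene reads were removed (filterByExpr, minimum count 10), and the rest were scaled by TMM and tested with edgeR 4.0.16 in R 4.3.3 by a robust two-sided quasi-likelihood fit on sex alone, with Benjamini-Hochberg adjustment over 16602 genes. SE is |log2 fold change| over √F. CPM used TMM factors, and correlations used log2 CPM with a prior count of 2. Ratios of intron to exon reads used a pseudocount of 1. Permutation tests used Python 3.11.15 with scipy 1.17.1. Alternatives were other size factors, no filter, a stricter filter (1 CPM in 5 libraries), total gene reads, exon reads, DESeq2 1.42.0, limma-voom (limma 3.58.1), a replicate block and leaving out each library. The genes and lists were chosen with earlier results of these data known. Named beside the 6 genes were the 5 most and 3 least correlated genes of Ahr, Ahrr, Cyp1b1 and Tiparp, and of each list the genes with an unadjusted p under 0.05 and the 3 most abundant per length. Other genes named were chosen after their values were seen. Depth per library is given in the report. Cyp1a1 was not tested because of its few reads.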

Additional observations from a re-analysis of the deposited data

Results flagged for a closer look

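In female replicate 1, Ahrr was at 3.90 CPM, apart from the 5.98 to 6.57 CPM of the other 4 female libraries by more than the 95% limit of Dixon's test. Of 20 groups of 5 libraries checked in this way (5 genes, in CPM and per length, in each sex), this was the single one, and chance gives about 1 in 20.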

How the results depend on the processing

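Genes called between the sexes numbered 15, against 30 with no filter on low counts, 72 with DESeq2, 43 with the replicate block and 12 to 36 without single libraries, where the 36 came without male replicate 1. The cause was not tested. Deviations of same-numbered female and male libraries correlated at 0.0823, 0.0735, 0.139, 0.0425 and 0.241 for numbers 1 to 5. Female libraries 1, 3 and 5 correlated best, among the male libraries, with the one of their own number. The best female partner of each male library was not determined. The labels do not say what a number shares, so the main fits did not pair the samples, and a shared batch was not tested. If same-numbered libraries do share a source, the exact p-values for pairs of genes could be too small, since the permutation takes those libraries as unrelated. Of the 5 tested pathway genes none was called with the replicate block, where Ahr had a log2 fold change of -0.42 (edgeR adjusted p = 0.167) and Ahrr -0.73 (edgeR adjusted p = 0.237), and the SE for Cyp1b1 was 0.055, against 0.157 without the block. Ahr crossed the threshold with DESeq2 alone. Of 90 alternative values of the 5 log2 fold changes, 86 kept direction and side of the threshold, 1 crossed it and 3 turned, all for Cyp1b1, at 0.025 without female replicate 2, 0.0021 without male replicate 4 and 0.034 without male replicate 5 (range over single libraries left out -0.14 to 0.034). Of 10 pairs, 1 passed; 0 passed with exon reads, and 0 to 1 passed without single libraries. The r of Arnt and Cyp1b1 stayed between -0.95 and -0.80 and passed in 5 of 14 alternatives. With sex means kept, the r of Ahr and Arnt turned to -0.018. The r of Ahr and Cyp1b1 ranged from -0.41 to 0.029 without single libraries, turning without male replicate 1. The log2 intron to exon ratio (female minus male) ranged without single libraries from -0.012 to 0.28 for Ahr, -0.32 to 0.012 for Ahrr, -0.048 to 0.18 for Arnt and -0.15 to 0.066 for Cyp1b1, and passed under none of 12 alternatives. With total in place of unique exon reads, the level per length was 8.67 in female and 8.58 in male cells for Arnt and 8.97 in female cells for Tiparp. With 30662616 to 45859721 reads a library, depth limits Cyp1a1 (0 to 9 reads) and Ahrr (144 to 620 reads) most.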

Other observations

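Cyp1b1 was highest in replicate 5 of each sex, at 135.1 CPM in the female and 142.1 CPM in the male library, and its 2 lowest libraries in each sex were those numbered 1 and 2. Gramd3 had the reverse pattern, with 19.3 CPM in female replicate 5 and 17.4 CPM in male replicate 5, against 26.1 and 26.4 CPM in female replicates 1 and 2 and 27.4 and 25.6 CPM in male replicates 1 and 2.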
